A study of Homo sapiens with 12 samples.

Results

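Huh7 and Hep3B, both established lines from human liver cancer, were compared in the absence of the siRNA that the study was about. The comparison took 6 of the 12 arrays: 3 of Huh7 cells and 3 of Hep3B cells, RNA being taken 48 h after transfection with a negative control RNA. Both groups had therefore gone through a transfection, and both were grown in the same serum-containing medium. The sequence of the negative control RNA is not given in the sources used here. Neither the passage of the lines nor the number of cultures behind the 3 arrays of a line is stated, so the p-values rest on array-to-array spread alone, which may be technical. The study's siRNA arrays of the same lines (48 h after transfection with an siRNA whose target the labels do not state, while the series title names 1 long non-coding RNA), also 3 each, share no array with this comparison and serve below as a second set of arrays of each line. Control and siRNA arrays were normalized and fitted together, so calls in both sets share 1 estimate of the spread and are not independent. All 66158 tested transcript cluster rows entered the fit, of which 22411 could be given the name of 1 gene. The 40 gene lists used below named 1414 members, of which 1223 were measured, some of them in more than 1 list.

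Hepatocytes secrete most proteins of blood plasma, build lipoproteins and bile acids, detoxify drugs and metals, and dispose of nitrogen as urea. Lines grown from liver tumours keep parts of this programme and often also express fetal liver genes such as AFP and GPC3, markers of progenitor or bile duct cells, or mesenchymal genes. Imprinted loci are expressed from the copy inherited from 1 parent, and several of them are active in fetal liver and altered in liver tumours.

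Values are log2 signals after quantile normalization, differences are Huh7 minus Hep3B on that scale with the standard error of the fit (n = 3 arrays per line), and "called" means a limma adjusted p under 0.05. A signal was taken as within background when it did not exceed 5.50, the highest mean among 23 background rows. Where the mean of the lower line lay within background the fold is given as a lower bound ("at least"), computed from the mean of the higher line against, array by array, that limit or a brighter signal of the lower line. Counts by fold, such as members "by at least 2-fold", use the difference without this bound (for 2-fold, a log2 difference of 1 or more). A counted member can therefore have a lower bound under 2-fold. Array medians before normalization ran from 3.82 to 3.94. Control arrays of the same line correlated across rows at r of 0.991 or more and control arrays of different lines at 0.957 to 0.961. One label disagreed: Huh7 control array 1 is Huh7 by title, by source and by cell line, but Hep3B by its free-text description. Its signals correlated at 0.985 to 0.993 with the other Huh7 arrays and at 0.954 to 0.960 with the Hep3B arrays. Huh7 control array 3 stood apart in another way: among the 74 named genes that were at least 8-fold higher in Hep3B, it was the highest of the 3 Huh7 arrays for 59 (79.7%), against 37.7% of all named genes. Values without it are given where they differ by more than 1.5 times or where a call changes. In RNA from a whole culture, fewer cells of a type and less RNA per cell cannot be told apart.

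The liver identity of both lines could be checked against hepatocyte genes. ALB, the main plasma protein, read 19.39, 19.43 and 19.43 in the Hep3B arrays and 18.18, 18.15 and 18.17 in the Huh7 arrays, close to the highest signal of any array (19.9). APOB, the core protein of low density lipoprotein, read 18.41, 18.41 and 18.41 in the Hep3B arrays and 18.15, 18.06 and 18.08 in the Huh7 arrays. TTR, the carrier of thyroid hormone and of retinol binding protein, read 9.63, 9.66 and 9.57 in the Hep3B arrays and 9.94, 10.06 and 10.11 in the Huh7 arrays. All 3 were far above background in every control array of both lines. Other hepatocyte genes read lower: SERPINA1 had a mean of 6.91 in both lines. APOA1 lay close to the background limit in Hep3B (mean 5.52) and within background in Huh7 (4.14), so the check does not hold for every hepatocyte gene. The blood marker PTPRC (mean 3.42 in Hep3B and 3.38 in Huh7), the endothelial marker CDH5 (3.56 and 3.51) and the fibroblast marker COL1A1 (4.06 and 4.10) lay within background. None of 10 endothelial markers exceeded background in either line. Of 9 fibroblast and stellate markers none did so in Hep3B and 2 in Huh7, and the summed log2 level of the 9 ran from 36.4 to 36.6 over the Hep3B control arrays and from 38.7 to 39.9 over the Huh7 control arrays. Among 9 blood and macrophage markers 2 exceeded background in each line, and their summed level ran from 44.7 to 45.0 in Hep3B and from 46.9 to 47.4 in Huh7.

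The lines differed widely. Of the 66158 rows, 13846 (20.9%) were called, 7295 (11%) higher in Huh7 and 6551 (9.9%) higher in Hep3B. At least 2-fold as well were 4272 rows (6.46%), 2278 (3.44%) towards Huh7 and 1994 (3.01%) towards Hep3B. Among named genes 7472 of 22411 (33.3%) were called, with 4111 (18.3%) higher in Huh7 and 3361 (15%) higher in Hep3B. A difference of at least 2-fold as well was met by 2204 named genes (9.83%), of which 1269 (5.66%) were higher in Huh7 and 935 (4.17%) higher in Hep3B. The median difference over all named genes was 0.01. Counts of list members below are to be read against these shares, and against the higher share of 66.2% called among the 8428 named genes that exceeded background in at least 1 line. Of those 8428, 36.3% were higher in Huh7 and 29.9% in Hep3B, and 24.7% were at least 2-fold apart (14.2% towards Huh7 and 10.5% towards Hep3B). The lists and their members were chosen with earlier results of these data known. A list count above these shares is therefore a description and not a test. The siRNA arrays gave 15402 called rows (23.3%) for the same line difference. Of the 2204 named genes with a 2-fold difference in the control arrays, 2159 (98.0%) were called in the same direction in the siRNA arrays and 0 in the opposite direction. These genes were selected by their control arrays, and both calls share 1 estimate of the spread. The 98.0% is therefore a description and not an independent test.

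Genes with the largest differences in favour of Huh7 were enzymes of steroid and quinone reduction, fibrinogen, receptors and secreted proteins. AKR1C2, an aldo-keto reductase that inactivates steroid hormones, read 4.22, 4.07 and 3.78 in the Hep3B arrays and 13.45, 13.15 and 13.17 in the Huh7 arrays. The Hep3B arrays were all within background, and AKR1C2 was at least 217-fold higher in Huh7 (log2 difference 9.23 ± 0.16, adjusted p = 4.13e-11). CTSE, the aspartic protease cathepsin E, read 5.12, 5.21 and 4.95 in the Hep3B arrays and 13.11, 13.27 and 13.25 in the Huh7 arrays and was at least 210.2-fold higher in Huh7 (8.12 ± 0.28, adjusted p = 3.73e-09). PTGR1, which reduces prostaglandin and leukotriene derivatives, was at least 130.2-fold higher (7.56 ± 0.09, adjusted p = 3.47e-12). HAVCR1, a membrane receptor used by hepatitis A virus and known in kidney as an injury marker, read 5.27, 5.41 and 5.63 in the Hep3B arrays and 12.83, 12.86 and 12.74 in the Huh7 arrays. That made HAVCR1 at least 154-fold higher in Huh7 (7.37 ± 0.11, adjusted p = 1.32e-11), with 1 Hep3B array above background. RPS6KA3, a ribosomal S6 kinase downstream of the MAP kinases, read 7.35, 7.57 and 7.57 in the Hep3B arrays and 14.33, 14.46 and 13.88 in the Huh7 arrays, 106-fold higher in Huh7. BRDT, a bromodomain protein normally found in testis, was at least 43.7-fold higher and GTSF1, a factor of the germline piRNA pathway, at least 21.9-fold higher, both from signals within background in Hep3B. GJA1, the gap junction protein connexin 43, was 77.1-fold higher (6.27 ± 0.12, adjusted p = 1.02e-10). ANXA1, a phospholipid-binding protein induced by glucocorticoids, read 9.79, 9.88 and 9.68 in the Huh7 arrays and 3.89, 3.67 and 3.59 in the Hep3B arrays, at least 19.5-fold higher.

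In favour of Hep3B, the largest differences belonged to small nucleolar RNAs of the SNORD116 family, described with the imprinted loci below, and to genes of secretion, adhesion and transport. RELN, which encodes the secreted glycoprotein reelin, read 12.67, 12.73 and 12.75 in the Hep3B arrays and 4.56, 4.47 and 5.48 in the Huh7 arrays. It was at least 149-fold higher in Hep3B (log2 difference -7.88 ± 0.21, adjusted p = 5.96e-10). SLC6A14, an importer of neutral and basic amino acids, read 12.65, 12.78 and 12.59 in the Hep3B arrays and 6.01, 5.98 and 6.40 in the Huh7 arrays and was 93.5-fold higher in Hep3B (-6.55 ± 0.13, adjusted p = 1.09e-10). TM4SF4, a membrane protein of the transmembrane 4 family, read 11.57, 11.67 and 11.43 in the Hep3B arrays and 5.66, 5.44 and 6.21 in the Huh7 arrays, 55.2-fold higher. APOH, a plasma glycoprotein that binds phospholipids, read 18.77, 18.88 and 18.88 in the Hep3B arrays and 13.26, 13.73 and 14.04 in the Huh7 arrays and was 36-fold higher in Hep3B (-5.17 ± 0.34, adjusted p = 5.52e-07). Among the 881 named genes at least 2-fold higher in Hep3B and above background there, the Huh7 arrays all lay within background for 203 (23.0%), and the corresponding figure for the 1198 genes higher in Huh7 was 297 (24.8%).

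**Figure D1:**
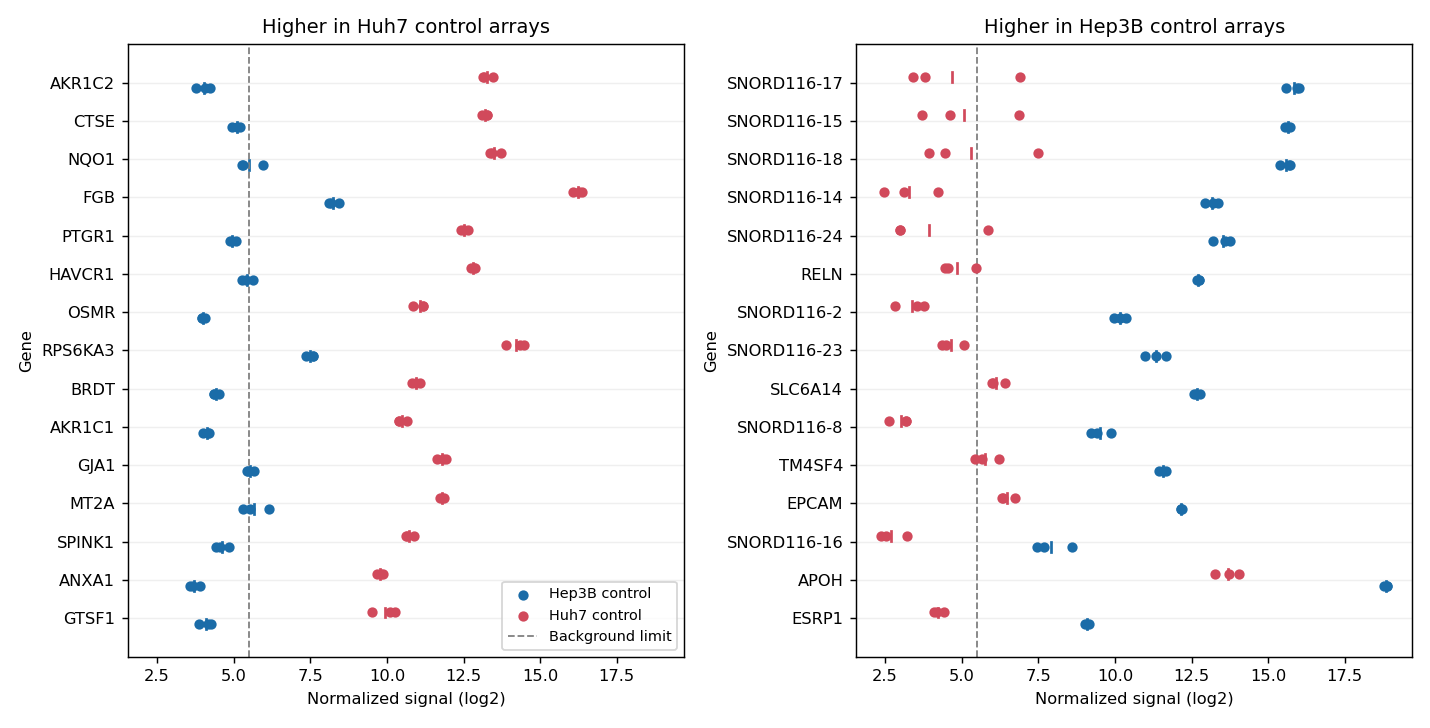
Normalized log2 signal (horizontal axis) of the 15 named genes with the largest difference in each direction, 1 point per control array, with vertical ticks at the line means and a dashed line at the background limit of 5.50. The genes were chosen among those whose lines do not overlap, and Huh7 control array 3 lies above the other Huh7 arrays for several SNORD116 copies.

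Transcription factors of the hepatocyte lineage differed in both directions, mostly by less than 2-fold. Of 17 measured members of that list, 3 were higher in Huh7 (1 by at least 2-fold), 7 were higher in Hep3B (2 by at least 2-fold), 7 were not called, and the median difference was -0.14. GATA6, an endoderm factor, read 7.80, 8.11 and 7.80 in the Huh7 arrays and 5.67, 5.84 and 5.78 in the Hep3B arrays. That was 4.40-fold higher in Huh7 (2.14 ± 0.09, adjusted p = 1.81e-08). FOXA2, a pioneer factor of liver development, was higher in Huh7 by 0.78 and HHEX, a homeobox factor of the early liver bud, by 0.82. In the other direction CEBPA, which drives hepatocyte differentiation, differed by -0.88, ONECUT1, also called HNF6, by -1.15, and NR0B2, the bile acid-induced repressor SHP, by -1.69, with the Huh7 arrays of NR0B2 within background. NR5A2 (0.01), GATA4 (0.20) and CEBPB (0.13) were not called.

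The fetal liver and tumour marker genes split between the lines. Of 19 measured, 5 were higher in Huh7 (5 by at least 2-fold), 8 were higher in Hep3B (3 by at least 2-fold), 6 were not called, and the median difference was 0.03. AFP, the fetal albumin homologue used as a serum marker of liver cancer, read 8.22, 8.29 and 8.20 in the Hep3B arrays and 10.91, 10.82 and 10.48 in the Huh7 arrays, 5.66-fold higher in Huh7 (2.50 ± 0.16, adjusted p = 3.32e-07). GPC3, a heparan sulfate proteoglycan on the surface of many liver cancer cells, read 14.88, 14.91 and 14.86 in the Hep3B arrays and 13.27, 13.28 and 13.38 in the Huh7 arrays, which was 2.98-fold higher in Hep3B (-1.57 ± 0.11, adjusted p = 8.54e-07). AFP and GPC3, both in use as tumour markers, thus differed in opposite directions, each without overlap between arrays. SPINK1, a trypsin inhibitor secreted by some liver cancers, was at least 37.5-fold higher in Huh7 and within background in Hep3B. GOLM1, a Golgi membrane protein found in serum of liver cancer patients, was 6.90-fold higher in Huh7, and LIN28B, the RNA-binding repressor of let-7 maturation, 3.86-fold higher. DKK1, a secreted inhibitor of WNT signalling, read 13.64, 13.59 and 13.77 in the Hep3B arrays and 10.17, 10.03 and 10.15 in the Huh7 arrays. It was 11.8-fold higher in Hep3B (-3.56 ± 0.09, adjusted p = 4.42e-10).

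Surface markers of progenitor and bile duct cells also separated the lines. Of 20 measured members, 6 were higher in Huh7 (3 by at least 2-fold), 10 were higher in Hep3B (6 by at least 2-fold), 4 were not called, and the median difference was -0.34. EPCAM, an adhesion molecule of hepatic progenitors and bile duct cells, read 12.17, 12.15 and 12.20 in the Hep3B arrays and 6.31, 6.35 and 6.75 in the Huh7 arrays. It was 52-fold higher in Hep3B (-5.70 ± 0.11, adjusted p = 1.09e-10). LGR5, the R-spondin receptor that marks stem cells in several epithelia, read 11.67, 11.84 and 11.71 in Hep3B against 7.25, 7.47 and 7.38 in Huh7, 20.7-fold higher in Hep3B (-4.37 ± 0.20, adjusted p = 2.97e-08). PROM1, which encodes CD133, was 4.94-fold higher in Hep3B (-2.30 ± 0.09, adjusted p = 9.52e-09), and SOX9, a transcription factor of bile duct cells, differed by -1.83. CD44, the hyaluronan receptor, ran the other way with 4.18, 4.15 and 4.34 in the Hep3B arrays and 8.57, 8.86 and 8.54 in the Huh7 arrays, at least 8.96-fold higher in Huh7 (4.44 ± 0.12, adjusted p = 6.82e-10). KRT8 and KRT18, the keratin pair of hepatocytes, were 9.95-fold and 9.15-fold higher in Huh7, while KRT19, a bile duct keratin, differed by 0.81 with all Hep3B arrays within background.

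Epithelial and mesenchymal genes, taken as 1 list, held members higher in each line. Of 26 measured members, 7 were higher in Huh7 (6 by at least 2-fold), 10 were higher in Hep3B (4 by at least 2-fold), 9 were not called, and the median difference was -0.02. VIM, the intermediate filament protein of mesenchymal cells, read 7.58, 7.77 and 7.56 in the Hep3B arrays and 10.58, 10.58 and 10.53 in the Huh7 arrays, 7.59-fold higher in Huh7 (2.92 ± 0.07, adjusted p = 3.38e-10). CDH2, N-cadherin, which hepatocytes also carry, read 7.98, 7.83 and 7.90 in the Hep3B arrays and 12.46, 12.48 and 12.38 in the Huh7 arrays. That was 23.2-fold higher in Huh7 (4.54 ± 0.08, adjusted p = 4.13e-11). CDH17, the liver-intestine cadherin, was at least 3.16-fold higher in Huh7. ESRP1, a splicing regulator of epithelial cells, read 9.16, 9.09 and 9.03 in the Hep3B arrays and 4.20, 4.09 and 4.42 in the Huh7 arrays, at least 12.1-fold higher in Hep3B (-4.86 ± 0.13, adjusted p = 5.43e-10). CDH1, E-cadherin, differed by -0.72 (adjusted p = 2.11e-05) in the control arrays and by -0.08 in the siRNA arrays, where it was not called.

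The retinoblastoma gene gave the largest difference of the p53 and RB list. RB1, which restrains entry into S phase, read 5.75, 5.58 and 5.72 in the Hep3B arrays and 11.37, 11.43 and 11.17 in the Huh7 arrays. The lines did not overlap, and RB1 was 49.8-fold higher in Huh7 (5.64 ± 0.14, adjusted p = 3.37e-10). The pathway list as a whole was not one-sided: of 29 measured p53 and RB pathway genes, 8 were higher in Huh7 (1 by at least 2-fold), 6 were higher in Hep3B (3 by at least 2-fold), 15 were not called, and the median difference was 0.02. TP53INP1, a stress-induced p53 target, was 10.6-fold higher in Hep3B (-3.40 ± 0.17, adjusted p = 5.11e-08). MDM2, the ubiquitin ligase of p53, was 2.15-fold higher in Hep3B and E2F3, a transcription factor bound by RB1, 3.31-fold higher. TIGAR and XPC, both p53 targets, were higher in Huh7 by 0.96 and 0.55 log2 units. No measured member of the list of 21 cancer-testis antigens exceeded background in either line; BRDT, described above and also classed as such an antigen, is not on that list.

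Among secreted plasma proteins, all 3 fibrinogen genes were higher in Huh7. The beta chain gene FGB read 8.17, 8.42 and 8.11 in the Hep3B arrays and 16.25, 16.35 and 16.07 in the Huh7 arrays. FGB was 254-fold higher in Huh7 (7.99 ± 0.13, adjusted p = 2.31e-11). FGA, the alpha chain, read 13.94, 13.98 and 13.96 in Hep3B against 17.78, 17.96 and 17.80 in Huh7, 14.8-fold higher in Huh7 (3.89 ± 0.13, adjusted p = 3.78e-09). FGG, the gamma chain, read 10.22, 10.11 and 10.24 in Hep3B against 13.25, 13.52 and 13.39 in Huh7, 9.18-fold higher (3.20 ± 0.12, adjusted p = 5.4e-09). The 3 chains are needed in equal numbers for the fibrinogen hexamer, and all 3 genes were higher in every Huh7 array than in every Hep3B array. Each fibrinogen difference was smaller in the siRNA arrays, where FGA differed by 1.75, FGB by 5.66 and FGG by 1.86, all still called.

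Of 25 measured coagulation, fibrinogen and contact factor genes, 10 were higher in Huh7 (8 by at least 2-fold), 7 were higher in Hep3B (3 by at least 2-fold), 8 were not called, and the median difference was 0.02. PROS1, the anticoagulant protein S, was 7.56-fold higher in Huh7 and HABP2, a plasma protease that binds hyaluronan, 6.58-fold higher. F7, coagulation factor VII, which starts clotting with tissue factor, was 3.62-fold higher in Hep3B (-1.86 ± 0.10, adjusted p = 9.39e-08). F5, the cofactor of factor Xa, was 2.36-fold higher in Hep3B and FGL1, a fibrinogen-like protein secreted by liver, 2.31-fold higher. F2, prothrombin, differed by 0.09 and was not called (adjusted p = 0.576).

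Carrier proteins were more often higher in Hep3B. Of 21 measured members, 5 were higher in Huh7 (4 by at least 2-fold), 10 were higher in Hep3B (8 by at least 2-fold), 6 were not called, and the median difference was 0.01. ALB itself was 2.37-fold higher in Hep3B (-1.25 ± 0.05, adjusted p = 1.02e-08), although its Hep3B signals lay near the top of the scale. AFM, an albumin homologue that carries vitamin E, was at least 1.95-fold higher in Hep3B. AHSG, the calcium-binding plasma protein fetuin-A, read 15.72, 15.76 and 15.83 in the Hep3B arrays and 12.31, 12.28 and 12.43 in the Huh7 arrays and was 10.8-fold higher in Hep3B (-3.43 ± 0.13, adjusted p = 5.86e-09). CP, the ferroxidase ceruloplasmin, was 2.89-fold higher in Hep3B. The opposite held for HP, the haemoglobin-binding protein haptoglobin, with 4.86, 4.99 and 4.61 in the Hep3B arrays and 10.17, 10.47 and 9.64 in the Huh7 arrays. HP was at least 24.2-fold higher in Huh7 (5.27 ± 0.25, adjusted p = 4.22e-08). SELENOP, the selenium carrier, was 2.83-fold higher in Huh7. TTR differed by 0.42 (adjusted p = 0.0423), a call that was lost when any 1 of the 6 control arrays was left out, with adjusted p from 0.0549 to 0.125.

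Of 21 measured apolipoproteins and assembly factors, 1 was higher in Huh7 (0 by at least 2-fold), 9 were higher in Hep3B (5 by at least 2-fold), 11 were not called, and the median difference was 0.03. APOA2, the second protein of high density lipoprotein, read 14.21, 14.23 and 14.29 in the Hep3B arrays and 10.11, 10.28 and 10.53 in the Huh7 arrays. It was 15.3-fold higher in Hep3B (-3.94 ± 0.14, adjusted p = 3.76e-09). APOM, a lipocalin of high density lipoprotein that carries sphingosine 1-phosphate, was at least 4.26-fold higher in Hep3B. The 7 rows that carry the name APOM differed in the same direction, but several gave identical values, so they are not independent. APOA1, the main protein of high density lipoprotein, had a log2 difference of -1.38, with mean signals of 5.52 in Hep3B and 4.14 in Huh7 that sat at or within background on this array. APOB differed by -0.31 (adjusted p = 0.00195) and APOC3, an inhibitor of lipoprotein lipase, by 0.10 (not called).

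Complement genes were divided. Of 28 measured, 6 were higher in Huh7 (3 by at least 2-fold), 7 were higher in Hep3B (3 by at least 2-fold), 15 were not called, and the median difference was -0.06. C3, the central component of the cascade, read 16.36, 16.36 and 16.45 in the Hep3B arrays and 13.96, 13.95 and 14.19 in the Huh7 arrays and was 5.12-fold higher in Hep3B (-2.36 ± 0.09, adjusted p = 8.13e-09). C5, cleaved to start the membrane attack complex, read 11.64, 11.74 and 11.69 in the Hep3B arrays and 13.46, 13.46 and 13.32 in the Huh7 arrays and was 3.31-fold higher in Huh7 (1.73 ± 0.06, adjusted p = 6.17e-09). MBL2, the lectin that opens the lectin pathway, was 3.74-fold higher in Huh7 and C8A, a subunit of the attack complex, at least 1.39-fold higher. C4BPA and C4BPB, the chains of an inhibitor of the C4b component, were 2.50-fold and at least 3.08-fold higher in Hep3B.

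Of 25 measured serpins and other secreted inhibitors, 6 were higher in Huh7 (4 by at least 2-fold), 13 were higher in Hep3B (6 by at least 2-fold), 6 were not called, and the median difference was -0.48. SERPING1, the C1 inhibitor of complement and contact proteases, read 7.59, 7.98 and 7.80 in the Hep3B arrays and 13.65, 13.68 and 13.26 in the Huh7 arrays. SERPING1 was 53.4-fold higher in Huh7 (5.74 ± 0.20, adjusted p = 3.5e-09). SERPINF1, the antiangiogenic pigment epithelium-derived factor, read 13.04, 13.003 and 13.13 in the Hep3B arrays and 8.13, 8.11 and 8.62 in the Huh7 arrays, 27.3-fold higher in Hep3B (-4.77 ± 0.14, adjusted p = 9.83e-10). SERPINI1, neuroserpin, was 4.0-fold higher in Hep3B. SERPINA1, alpha-1 antitrypsin, had means of 6.91 in Hep3B and 6.91 in Huh7 and was not called (adjusted p = 0.988), and SERPINC1, antithrombin, differed by 0.35 with both means within background.

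Acute phase genes, which cytokines such as interleukin 6 induce in hepatocytes, were split within the list. Of 18 measured, 6 were higher in Huh7 (6 by at least 2-fold), 4 were higher in Hep3B (2 by at least 2-fold), 8 were not called, and the median difference was 0.01. The members counted as at least 2-fold higher in Huh7 included the 3 fibrinogen genes, HP and HAMP, the last by its difference without the background bound. Those counted as higher in Hep3B included C3 and CP. CRP, C-reactive protein, differed by -0.10 and was not called, with both means within background (3.50 in Hep3B and 3.40 in Huh7). HAMP, the iron hormone hepcidin, read 4.54, 4.35 and 4.30 in Hep3B against 5.55, 6.11 and 5.56 in Huh7, at least 1.19-fold higher in Huh7 (1.34 ± 0.17, adjusted p = 9.86e-05). Of 21 iron and heme genes, 10 were higher in Huh7 (6 by at least 2-fold), 3 were higher in Hep3B (1 by at least 2-fold), 8 were not called, and the median difference was 0.18. SLC40A1, the iron exporter ferroportin, whose degradation hepcidin triggers, was 4.32-fold higher in Huh7, HPX, the heme carrier hemopexin, differed by 1.16, and ALAS1, the first enzyme of heme synthesis, was 2.91-fold higher in Huh7. TFRC, the transferrin receptor, was higher in Huh7 by 0.95 log2 units.

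Genes of the insulin-like growth factor axis leaned to Hep3B in the 2-fold class. Of 20 measured, 4 were higher in Huh7 (1 by at least 2-fold), 5 were higher in Hep3B (4 by at least 2-fold), 11 were not called, and the median difference was -0.06. IRS2, an adaptor of the insulin and IGF1 receptors, read 8.68, 9.06 and 8.34 in the Hep3B arrays and 5.46, 5.25 and 5.98 in the Huh7 arrays and was 8.73-fold higher in Hep3B (-3.13 ± 0.22, adjusted p = 9.15e-07). IGF2R, the receptor that clears IGF2, was 4.59-fold higher in Hep3B and IGFBP3, the main serum carrier of IGFs, 3.02-fold higher. IGF1R differed by 0.33 (adjusted p = 0.0341), a call lost on the values as deposited (adjusted p = 0.0629), with median centring (0.0598) and with cyclic loess (0.0535). It was also lost with the replicate number as a block (0.0512) and when any of 5 control arrays was left out.

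Metallothioneins, small cysteine-rich proteins that bind zinc, copper and cadmium, were higher in Huh7 for 10 of the 12 measured. Of 12 measured members, 10 were higher in Huh7 (9 by at least 2-fold), 0 were higher in Hep3B (0 by at least 2-fold), 2 were not called, and the median difference was 2.63. MT2A, a member expressed in most human tissues, read 5.30, 5.53 and 6.16 in the Hep3B arrays and 11.74, 11.79 and 11.87 in the Huh7 arrays. Of the Hep3B arrays 2 exceeded background, and MT2A was 70.2-fold higher in Huh7 (6.13 ± 0.25, adjusted p = 1.35e-08). MT1E read 5.92, 5.37 and 6.12 in the Hep3B arrays and 10.73, 10.83 and 10.72 in the Huh7 arrays, 31.1-fold higher (4.96 ± 0.18, adjusted p = 5.6e-09). MT1X read 5.32, 5.35 and 5.46 in the Hep3B arrays and 9.07, 9.16 and 9.34 in the Huh7 arrays, at least 13-fold higher (3.81 ± 0.11, adjusted p = 8.54e-10), and MT1F was at least 10.2-fold higher (4.58 ± 0.22, adjusted p = 5e-08). All 3 Huh7 arrays exceeded all 3 Hep3B arrays for each of these genes. MT3, the brain member, and MT4, the member of stratified epithelium, were not called and lay within background in both lines. The coding sequences of MT1 members are close to one another, so how far each row reports its own gene is uncertain.

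Zinc and cadmium act on these genes through a transcription factor that binds a short element with the core TGCACNC or TGCGCNC, present in several copies upstream of metallothionein genes. The 250 bases upstream of 2 called members are shown because every member with a RefSeq window held the core and the number of copies differed between them. The windows come from RefSeq on GRCh38.p14 and are written 5′ to 3′ along the gene, and capitals mark each match of either core on either strand. MT2A (chr16:56608334-56608583, + strand) held 7 matches and MT1X (chr16:56682220-56682469, + strand) held 4.
MT2A: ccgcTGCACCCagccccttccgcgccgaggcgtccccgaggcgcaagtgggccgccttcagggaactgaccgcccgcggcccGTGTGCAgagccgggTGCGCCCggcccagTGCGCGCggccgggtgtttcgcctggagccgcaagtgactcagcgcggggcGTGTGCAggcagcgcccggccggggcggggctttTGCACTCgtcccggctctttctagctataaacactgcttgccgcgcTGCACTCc
MT1X: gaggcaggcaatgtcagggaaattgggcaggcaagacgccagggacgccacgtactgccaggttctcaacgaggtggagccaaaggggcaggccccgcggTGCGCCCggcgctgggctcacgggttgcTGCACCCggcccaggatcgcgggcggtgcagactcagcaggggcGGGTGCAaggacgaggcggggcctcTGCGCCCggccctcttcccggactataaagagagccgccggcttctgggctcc
A RefSeq window was found for 5 metallothionein genes, and all 5 held at least 1 match, including all 4 that were called higher in Huh7 and MT4, which was not called and held 3. MT1H held 8 and MT1B 3. Over all 35116 RefSeq windows of this length, 24.8% held a match. The genes of this family are related in sequence, so their windows are not independent, and a match is a description of the letters.

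Genes regulated by the oxidative stress factor NRF2 and the aldo-keto reductases formed a second group higher in Huh7. Of 26 measured members, 15 were higher in Huh7 (12 by at least 2-fold), 6 were higher in Hep3B (1 by at least 2-fold), 5 were not called, and the median difference was 0.70. NQO1, which reduces quinones with NADPH, read 5.29, 5.27 and 5.96 in the Hep3B arrays and 13.71, 13.38 and 13.43 in the Huh7 arrays. One Hep3B array exceeded background, the lines were far apart, and NQO1 was 255-fold higher in Huh7 (7.99 ± 0.18, adjusted p = 2.48e-10). AKR1C1, a close homologue of AKR1C2 that reduces progesterone, read 4.17, 3.996 and 4.21 in the Hep3B arrays and 10.66, 10.40 and 10.40 in the Huh7 arrays and was at least 31.8-fold higher (6.36 ± 0.14, adjusted p = 2.48e-10). AKR1B10, which reduces retinal, was at least 6.42-fold higher, AKR1C4, a reductase of bile acid synthesis, had a log2 difference of 1.74, and PIR, an iron-binding nuclear protein, was at least 2.68-fold higher. AKR1D1, the steroid 5-beta reductase, had a log2 difference of -0.95, with all Huh7 arrays within background. The homologues AKR1C1 and AKR1C2 may share signal on the array.

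Further members act on thiols and on NADPH. GCLM, the modifier subunit of the enzyme that starts glutathione synthesis, was 5.36-fold higher in Huh7 (2.42 ± 0.11, adjusted p = 2.85e-08). ME1, a cytosolic source of NADPH, was 5.04-fold higher, PGD, of the pentose phosphate pathway, 4.94-fold higher, and TXN and TXNRD1, thioredoxin and its reductase, 3.56-fold and 4.39-fold higher. SLC7A11, the cystine importer and a known NRF2 target, went the other way with 9.65, 9.74 and 9.72 in the Hep3B arrays and 6.66, 6.86 and 7.01 in the Huh7 arrays. It was 7.25-fold higher in Hep3B (-2.86 ± 0.40, adjusted p = 0.000241). The Hep3B siRNA arrays of SLC7A11 read 11.24, 12.81 and 13.39, and that spread entered the standard error. HMOX1, heme oxygenase 1, differed by 0.10 and GPX2, a glutathione peroxidase, by -0.38, neither called. KEAP1, the adaptor that targets NRF2 for degradation, differed by -0.74.

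NRF2 binds the antioxidant response element with the core TGACNNNGC. The windows of ME1 (chr6:83431052-83431301, - strand) and GCLM (chr1:93909431-93909680, - strand) are shown because both genes were higher in Huh7 and each held 1 match, in opposite orientations, marked in capitals. These windows also come from RefSeq on GRCh38.p14, 5′ to 3′ along the gene.
ME1: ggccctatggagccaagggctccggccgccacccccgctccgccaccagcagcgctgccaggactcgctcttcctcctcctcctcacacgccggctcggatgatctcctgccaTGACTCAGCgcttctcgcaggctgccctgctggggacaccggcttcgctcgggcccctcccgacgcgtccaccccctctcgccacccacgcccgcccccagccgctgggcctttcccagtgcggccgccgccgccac
GCLM: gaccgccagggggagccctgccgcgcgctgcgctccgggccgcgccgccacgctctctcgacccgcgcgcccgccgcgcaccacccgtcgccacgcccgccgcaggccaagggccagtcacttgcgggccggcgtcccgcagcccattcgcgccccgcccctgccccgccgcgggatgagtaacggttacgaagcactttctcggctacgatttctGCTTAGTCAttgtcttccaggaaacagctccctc
Of 21 list genes with a window 7 held a match, among them 4 of the 13 called higher in Huh7, against 10.9% of the 35116 windows. A gene with more than 1 window counted if any of them matched, while the 10.9% is per window, so the shares are not like for like. NQO1, AKR1C1 and AKR1C2, with the largest differences, held none in this stretch, which says nothing about sequence outside it.

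**Figure D2:**
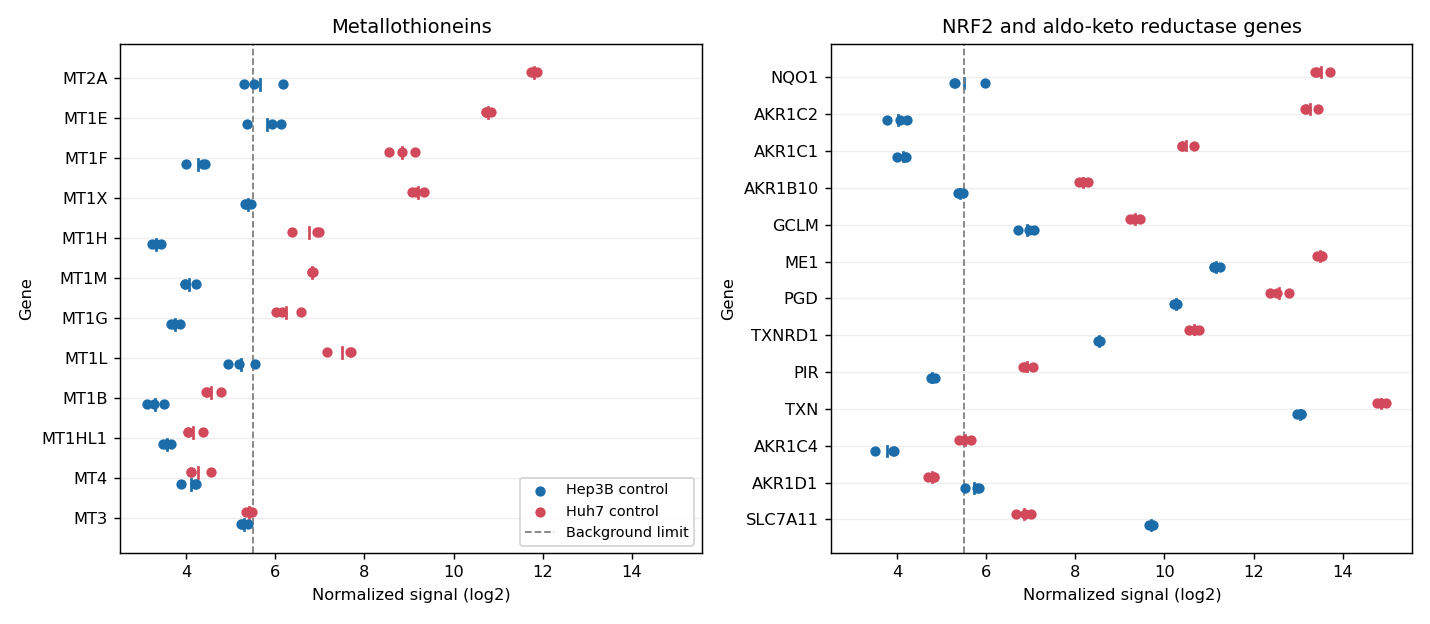
Normalized log2 signal (horizontal axis) in each control array for the 12 measured metallothioneins (left) and for 13 NRF2 and aldo-keto reductase genes (right), with ticks at the line means and a dashed background limit. The Huh7 points lie to the right of the Hep3B points for 10 metallothioneins, while SLC7A11 and AKR1D1 lie to the right in Hep3B.

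Of the 35 measured cytochrome P450 genes, which oxidise drugs, steroids and fatty acids, 9 exceeded background in at least 1 line. Of all 35, 12 were higher in Huh7 (3 by at least 2-fold), 3 were higher in Hep3B (1 by at least 2-fold), 20 were not called, and the median difference was 0.06. With 9 members above background, these calls include genes within background in both lines. CYP3A5, a drug-oxidising enzyme, read 4.16, 4.22 and 3.99 in Hep3B against 6.70, 6.53 and 6.50 in Huh7, at least 2.11-fold higher in Huh7 (2.45 ± 0.11, adjusted p = 3.47e-08). CYP7B1, which hydroxylates oxysterols, read 7.24, 6.87 and 7.36 in Hep3B against 3.95, 3.74 and 4.24 in Huh7 and was at least 3.16-fold higher in Hep3B (-3.18 ± 0.15, adjusted p = 3.56e-08). CYP2E1, the ethanol-inducible enzyme, differed by -0.04 and was not called, with both means within background (3.22 in Hep3B and 3.18 in Huh7).

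Conjugation enzymes were divided evenly. Of 37 measured members, 13 were higher in Huh7 (7 by at least 2-fold), 12 were higher in Hep3B (8 by at least 2-fold), 12 were not called, and the median difference was -0.01. GSTP1, the glutathione transferase that is low in normal hepatocytes, read 6.84, 6.59 and 6.81 in the Hep3B arrays and 10.61, 10.61 and 10.68 in the Huh7 arrays. GSTP1 was 14.8-fold higher in Huh7 (3.89 ± 0.10, adjusted p = 6.35e-10). GSTA4, which conjugates products of lipid peroxidation, was 2.95-fold higher in Huh7 and CES1, a carboxylesterase, at least 1.62-fold higher. The glucuronosyltransferases UGT2A3 and UGT2B7 were at least 8.83-fold and at least 3.57-fold higher in Hep3B, and SULT1C2, a sulfotransferase, at least 2.03-fold higher.

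Bile acid genes leaned to Hep3B by count, with few 2-fold differences. Of 26 measured, 4 were higher in Huh7 (1 by at least 2-fold), 11 were higher in Hep3B (3 by at least 2-fold), 11 were not called, and the median difference was -0.10. Besides CYP7B1 and NR0B2, SLCO1B3, an uptake transporter, was at least 1.52-fold higher in Hep3B. ABCB11, the bile salt export pump, had a log2 difference of 1.16 in favour of Huh7 with both means within background. SLC10A1, the bile salt importer that hepatitis B virus uses as receptor, differed by 0.10 and was not called, with means of 3.39 in Hep3B and 3.50 in Huh7.

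In nitrogen metabolism the enzymes of the urea cycle differed in both directions. Of 41 measured genes of the urea cycle and amino acid breakdown, 12 were higher in Huh7 (6 by at least 2-fold), 11 were higher in Hep3B (8 by at least 2-fold), 18 were not called, and the median difference was 0.03. ASS1, which joins citrulline and aspartate, read 9.56, 9.68 and 10.04 in the Hep3B arrays and 6.23, 6.22 and 6.54 in the Huh7 arrays. ASS1 was 10.8-fold higher in Hep3B (-3.43 ± 0.13, adjusted p = 6.01e-09). CPS1, the mitochondrial entry enzyme, was 2.26-fold higher in Hep3B (-1.18 ± 0.11, adjusted p = 1.07e-05). ARG1, which releases urea, read 6.85, 6.79 and 7.06 in the Hep3B arrays and 9.67, 9.56 and 8.89 in the Huh7 arrays and was 5.56-fold higher in Huh7 (2.48 ± 0.34, adjusted p = 0.000212), but its difference in the siRNA arrays was 0.96 and not called. OTC, the second enzyme of the cycle, differed by 0.06 and was not called, with both means within background (3.13 in Hep3B and 3.19 in Huh7). GLDC, of the glycine cleavage system, was 4.76-fold higher in Hep3B and HGD, of tyrosine breakdown, 2.52-fold higher in Huh7. HAL, which deaminates histidine, differed by -1.78 in the control arrays and by -0.25, not called, in the siRNA arrays.

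Several enzymes of glycolysis were higher in Huh7. Of 29 measured, 14 were higher in Huh7 (8 by at least 2-fold), 3 were higher in Hep3B (1 by at least 2-fold), 12 were not called, and the median difference was 0.15. ENO1, enolase, read 12.38, 12.33 and 12.34 in the Hep3B arrays and 14.57, 14.32 and 14.66 in the Huh7 arrays and was 4.50-fold higher in Huh7 (2.17 ± 0.11, adjusted p = 8.97e-08). PKM, pyruvate kinase of muscle and proliferating cells, read 9.88, 9.77 and 9.78 in Hep3B against 11.92, 11.78 and 12.14 in Huh7, 4.39-fold higher (2.13 ± 0.10, adjusted p = 2.8e-08). SLC2A1, the glucose transporter GLUT1, was 4.21-fold higher, PGAM1, phosphoglycerate mutase, 3.68-fold higher, and TPI1, triosephosphate isomerase, 2.93-fold higher. GAPDH and PGK1, the next enzymes of the chain, were 2.24-fold and 2.11-fold higher in Huh7. HK2, the hexokinase of many tumours, differed by -0.35 and was not called (adjusted p = 0.0711), but it was called among rows above background only (adjusted p = 0.0261) and without Huh7 control array 3 (0.0233).

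The glycogen breakdown genes PYGL and PHKA2 were higher in Huh7. Of 24 genes of gluconeogenesis, glycogen and fructose metabolism, 4 were higher in Huh7 (2 by at least 2-fold), 7 were higher in Hep3B (0 by at least 2-fold), 13 were not called, and the median difference was -0.01. PYGL, liver glycogen phosphorylase, read 8.13, 8.17 and 8.36 in the Hep3B arrays and 11.05, 10.99 and 10.97 in the Huh7 arrays. PYGL was 6.86-fold higher in Huh7 (2.78 ± 0.09, adjusted p = 2.11e-09), and PHKA2, a subunit of the kinase that activates it, 6.50-fold higher. PCK1, the rate-limiting enzyme of gluconeogenesis, differed by -0.01 and was not called, with both means within background (3.74 in Hep3B and 3.73 in Huh7). G6PC1, the glucose 6-phosphatase, had a log2 difference of -0.92 with all Huh7 arrays within background, and PC, pyruvate carboxylase, 0.82 with all Hep3B arrays within background.

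Alcohol and retinoid dehydrogenases leaned to Hep3B. Of 34 measured, 5 were higher in Huh7 (1 by at least 2-fold), 10 were higher in Hep3B (5 by at least 2-fold), 19 were not called, and the median difference was -0.03. ADH4 was at least 1.60-fold and ADH6 3.41-fold higher in Hep3B, both alcohol dehydrogenases of liver, and RDH10, which makes retinal for retinoic acid synthesis, 3.94-fold higher. HSD17B2, which inactivates estradiol and testosterone, was 4.32-fold higher in Huh7. ADH1A had both means within background, and its call (difference -0.40, adjusted p = 0.0193) was lost when any of 3 control arrays was left out. ALDH1A1, a retinal dehydrogenase, was not called and its sign changed between normalizations (0.15 after quantile normalization, -0.14 as deposited).

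Genes of cholesterol synthesis and uptake held members higher in each line. Of 28 cholesterol genes, 14 were higher in Huh7 (4 by at least 2-fold), 9 were higher in Hep3B (2 by at least 2-fold), 5 were not called, and the median difference was 0.25. Above background in at least 1 line were 23 of the 28. The share at least 2-fold apart was 21.4%, near the 24.7% of all named genes above background. HMGCS1, the cytosolic HMG-CoA synthase, was 3.34-fold higher in Huh7, and the later enzymes MSMO1, EBP and CYP51A1 were 3.37-fold, 3.40-fold and 2.28-fold higher. TM7SF2, a sterol reductase, was 2.33-fold higher in Hep3B and ABCA1, the cholesterol exporter, 2.67-fold higher. Of 50 fatty acid genes, 20 were higher in Huh7 (8 by at least 2-fold), 13 were higher in Hep3B (4 by at least 2-fold), 17 were not called, and the median difference was 0.03. DGAT2, which completes triglyceride synthesis, was at least 3.47-fold higher in Huh7, HADHA, of mitochondrial beta oxidation, 3.62-fold higher, and FADS2, a desaturase, 2.61-fold higher. ELOVL2, an elongase of polyunsaturated fatty acids, read 14.04, 14.13 and 14.05 in the Hep3B arrays and 11.17, 10.98 and 11.42 in the Huh7 arrays and was 7.36-fold higher in Hep3B (-2.88 ± 0.12, adjusted p = 1.27e-08). FASN, fatty acid synthase, and CPT1A, of mitochondrial fatty acid import, differed by -0.04 and -0.11 and were not called.

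Receptor chains for oncostatin M and leukemia inhibitory factor were higher in Huh7. Of 51 cytokine and TGF-beta family receptors, 23 were higher in Huh7 (14 by at least 2-fold), 9 were higher in Hep3B (4 by at least 2-fold), 19 were not called, and the median difference was 0.23. OSMR, the specific chain of the oncostatin M receptor, read 3.95, 3.98 and 4.05 in the Hep3B arrays and 11.18, 11.16 and 10.86 in the Huh7 arrays. The Hep3B arrays were within background, and OSMR was at least 47.6-fold higher in Huh7 (7.07 ± 0.11, adjusted p = 2.31e-11). LIFR, the chain for leukemia inhibitory factor, read 3.87, 4.02 and 3.94 in the Hep3B arrays and 8.35, 8.44 and 8.08 in the Huh7 arrays, at least 6.95-fold higher (4.35 ± 0.10, adjusted p = 2.85e-10). IL6ST, the shared signalling chain gp130, read 11.31, 11.34 and 11.31 in the Hep3B arrays and 12.84, 12.69 and 12.59 in the Huh7 arrays, 2.62-fold higher (1.39 ± 0.08, adjusted p = 2.19e-07). IL6R, the interleukin 6 chain itself, differed by 0.23 and was not called (adjusted p = 0.135). Both IL6R means lay within background (4.44 in Hep3B and 4.67 in Huh7). TNFRSF9, the costimulatory receptor 4-1BB, was at least 2.42-fold higher in Huh7. On the Hep3B side, IL17RB, a receptor for interleukins 17B and 25, was 8.94-fold higher (-3.16 ± 0.15, adjusted p = 3.94e-08), and the interferon receptor chains IFNAR1 and IFNGR2 2.74-fold and 3.04-fold higher.

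Receptor tyrosine kinases and nuclear receptors leaned to Hep3B by count. Of 43 receptor tyrosine kinases, 4 were higher in Huh7 (1 by at least 2-fold), 12 were higher in Hep3B (3 by at least 2-fold), 27 were not called, and the median difference was -0.05. FGFR2, a fibroblast growth factor receptor, read 6.91, 6.90 and 6.95 in the Hep3B arrays and 4.27, 4.24 and 4.31 in the Huh7 arrays and was at least 2.69-fold higher in Hep3B (-2.65 ± 0.06, adjusted p = 2.83e-10). MET, the receptor of hepatocyte growth factor, read 10.98, 10.997 and 11.01 in the Hep3B arrays and 9.83, 9.82 and 9.85 in the Huh7 arrays, 2.24-fold higher in Hep3B (-1.17 ± 0.06, adjusted p = 8.61e-08). MERTK, a receptor for apoptotic cells, was at least 2.82-fold higher in Huh7. EGFR differed by 0.07 in the control arrays and was not called. Of 31 nuclear receptors, 3 were higher in Huh7 (1 by at least 2-fold), 10 were higher in Hep3B (4 by at least 2-fold), 18 were not called, and the median difference was 0.01. RORA and NR1D2, both of the circadian clock, were 3.16-fold and 2.38-fold higher in Hep3B, and NR6A1, an orphan receptor of germ cells, 3.26-fold higher in Huh7. PPARA, which drives fatty acid oxidation in liver, differed by -0.19 and was not called (adjusted p = 0.092), but it was called on the values as deposited (adjusted p = 0.0421). Both PPARA means lay within background (4.92 in Hep3B and 4.73 in Huh7).

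Among receptors for uptake and virus entry, of 40 measured, 16 were higher in Huh7 (8 by at least 2-fold), 12 were higher in Hep3B (4 by at least 2-fold), 12 were not called, and the median difference was 0.07. Both subunits of the asialoglycoprotein receptor, which clears desialylated proteins into hepatocytes, were higher in Hep3B. ASGR1 read 7.88, 7.80 and 8.21 in the Hep3B arrays and 5.29, 5.59 and 5.49 in the Huh7 arrays, with 1 Huh7 array above background, at least 5.42-fold higher (-2.51 ± 0.12, adjusted p = 5.71e-08), and ASGR2 was 4.65-fold higher (-2.22 ± 0.10, adjusted p = 2.01e-08). CD81, a tetraspanin used by hepatitis C virus, differed by -0.63 and SDC2, a heparan sulfate proteoglycan, was 5.29-fold higher in Hep3B. NRP1, a coreceptor of semaphorins and vascular growth factor, was 6.19-fold higher in Huh7. Of 35 integrins and matrix receptors, 9 were higher in Huh7 (5 by at least 2-fold), 4 were higher in Hep3B (1 by at least 2-fold), 22 were not called, and the median difference was 0.03. ITGAV, the alpha-V integrin, was 4.96-fold higher in Huh7 and ITGB1, the most shared beta chain, 2.01-fold higher, whereas ITGA1, a collagen receptor chain, was 3.01-fold higher in Hep3B.

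Of 57 G protein-coupled and WNT receptors, 13 were higher in Huh7 (7 by at least 2-fold), 9 were higher in Hep3B (3 by at least 2-fold), 35 were not called, and the median difference was 0.01. FZD3, a WNT receptor, was at least 3.62-fold higher in Huh7 and F2RL2, a thrombin receptor, at least 4.69-fold higher, both within background in Hep3B. AGTR1, the angiotensin II receptor, read 7.73, 7.84 and 7.96 in the Hep3B arrays and 4.83, 4.86 and 5.01 in the Huh7 arrays and was at least 5.08-fold higher in Hep3B (-2.94 ± 0.08, adjusted p = 1.01e-09). SSTR2, a somatostatin receptor, was at least 4.42-fold higher in Hep3B.

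**Figure D3:**
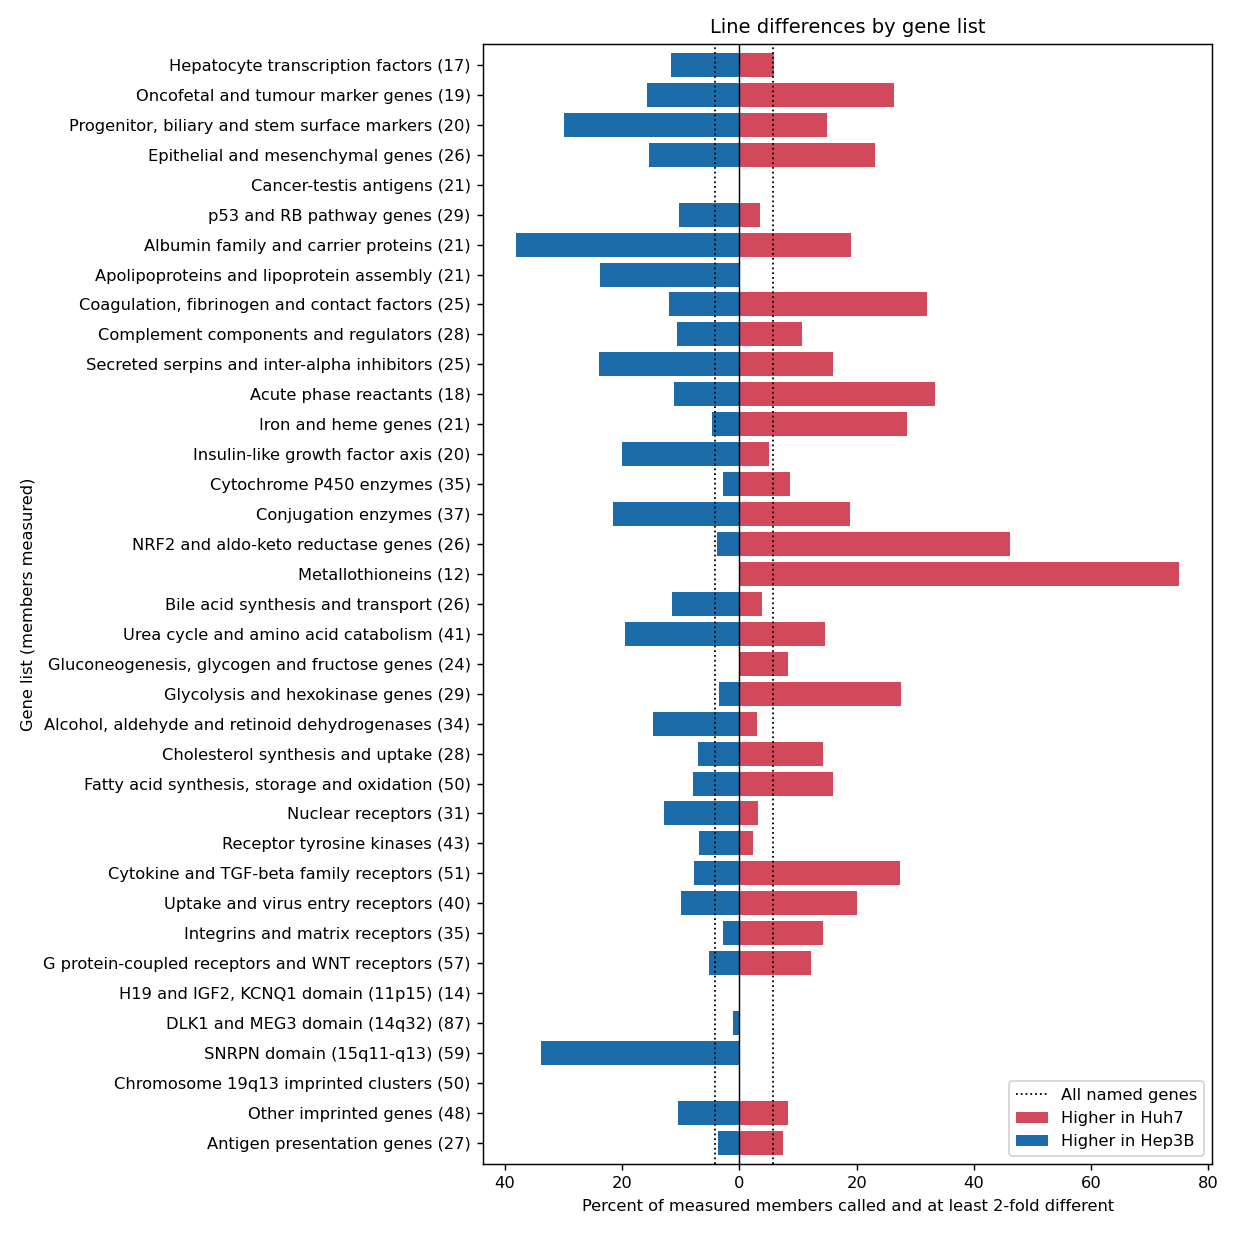
Percent of measured members (horizontal axis) that were called and at least 2-fold higher in Huh7 (right) or in Hep3B (left) for 37 gene lists, with the number measured in brackets and dotted lines at the shares for all named genes (5.66% and 4.17%). The bars for metallothioneins and NRF2 genes extend furthest to the right, and those for carrier proteins and the SNRPN domain furthest to the left. The lists were chosen with earlier results of these data known, so the dotted lines are no test of them.

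The largest differences at imprinted loci lay in the SNRPN domain. This domain, on chromosome 15 (15q11-q13), is transcribed from the paternal copy into a long RNA whose introns release SNORD116 and SNORD115, repeated small nucleolar RNAs of the box C/D class. Of 59 measured genes of the domain, 1 was higher in Huh7 (0 by at least 2-fold), 27 were higher in Hep3B (20 by at least 2-fold), 31 were not called, and the median difference was -0.39. All 19 measured SNORD116 copies were called higher in Hep3B, 18 of them exceeded background there, and none had a Huh7 mean above background. Their differences ran from -11.14 to -0.97 with a median of -4.66, and the Hep3B and Huh7 arrays did not overlap for any of the 19. SNORD116 copies are close to identical in sequence, so the rows are not independent and the signal of a single copy is uncertain.

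SNORD116-17 read 15.59, 15.92 and 16.01 in the Hep3B arrays and 3.41, 3.79 and 6.89 in the Huh7 arrays. It was at least 942-fold higher in Hep3B (-11.14 ± 0.69, adjusted p = 3.36e-07). Of the Huh7 arrays array 3 alone exceeded background, and the difference without Huh7 control array 3 was -12.24. SNORD116-15 read 15.56, 15.65 and 15.72 in the Hep3B arrays and 3.72, 4.61 and 6.86 in the Huh7 arrays, with a difference of -10.58 and of -11.48 without that array. SNORD116-18 (-10.31 and -11.41 without it) and SNORD116-24 (-9.57 and -10.52) showed the same pattern of 1 raised Huh7 array. Leaving out Huh7 control array 1 in its place moved SNORD116-17 to -10.50, SNORD116-15 to -9.91 and SNORD116-18 to -9.63. SNORD116-14 read 12.93, 13.36 and 13.20 in the Hep3B arrays and 2.48, 3.11 and 4.23 in the Huh7 arrays and was at least 203-fold higher in Hep3B, and SNORD116-2, SNORD116-23 and SNORD116-8 were at least 25.5-fold, at least 57-fold and at least 16-fold higher. In the siRNA arrays the differences of SNORD116-17, SNORD116-14 and SNORD116-2 were -10.78, -8.997 and -4.98.

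The neighbouring SNORD115 family did not share this size of difference. Of 31 measured SNORD115 copies 6 were called higher in Hep3B, none had a mean above background in either line, and the differences ran from -0.77 to 0.30. UBE3A, the ubiquitin ligase at the end of the domain that is maternally expressed in neurons, read 9.41, 9.44 and 9.48 in the Hep3B arrays and 8.26, 8.40 and 8.25 in the Huh7 arrays and was 2.21-fold higher in Hep3B (-1.14 ± 0.07, adjusted p = 3.42e-07). NDN and MAGEL2, paternally expressed protein genes of the domain, differed by 0.15 and 0.15 and were not called. The NDN means, 2.78 in Hep3B and 2.93 in Huh7, lay within background. SNRPN itself is not analysed here.

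**Figure D4:**
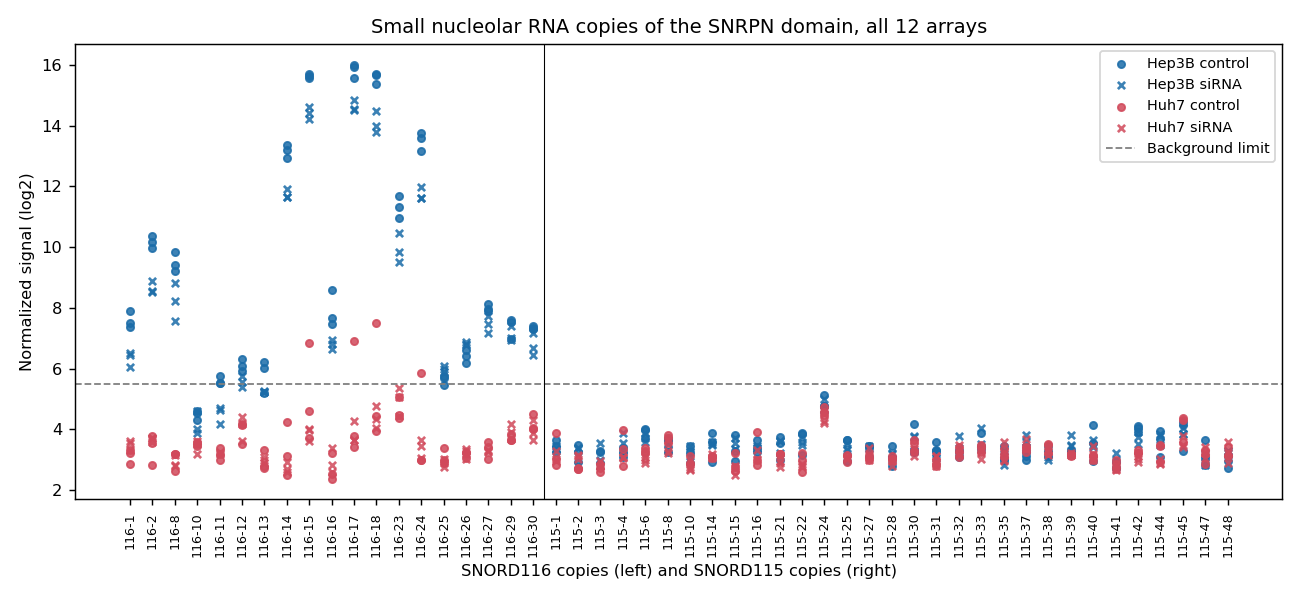
Normalized log2 signal (vertical axis) of 19 SNORD116 copies (left of the line) and 31 SNORD115 copies (right) in all 12 arrays, circles for control and crosses for siRNA arrays, with the background limit dashed. The Hep3B control arrays lie above the Huh7 control arrays for all SNORD116 copies, and SNORD115 signals of both lines lie below the limit.

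In the 14q32, 11p15 and chromosome 19 domains 1 gene differed by at least 2-fold, DLK1. Most measured genes of these domains had both line means within background, so the absence of a call says little about them. Above background in at least 1 line were 8 of 87, 2 of 14 and 2 of 50 genes. On chromosome 14 (14q32), of 87 measured genes, 0 were higher in Huh7 (0 by at least 2-fold), 6 were higher in Hep3B (1 by at least 2-fold), 81 were not called, and the median difference was -0.10. DLK1, a fetal protein of the NOTCH ligand type, read 6.50, 6.71 and 6.33 in the Hep3B arrays and 4.70, 4.81 and 4.78 in the Huh7 arrays. It was at least 2.02-fold higher in Hep3B (-1.75 ± 0.12, adjusted p = 9.18e-07). MEG3, the maternal long RNA of the domain, differed by -0.03 and was not called, with means of 3.47 in Hep3B and 3.44 in Huh7, within background. None of 31 SNORD114 or 9 SNORD113 copies was called. Of the SNORD114 copies 2 had a mean above background in Hep3B and 1 in Huh7, and no SNORD113 copy did in either line. Of 14 genes of the 11p15 domain, 0 were higher in Huh7 (0 by at least 2-fold), 3 were higher in Hep3B (0 by at least 2-fold), 11 were not called, and the median difference was -0.02. CDKN1C, a cell cycle inhibitor of that domain, had a log2 difference of -0.75 with both means within background. H19 and IGF2 are not analysed here. Of 50 genes of the chromosome 19 clusters, 1 was higher in Huh7 (0 by at least 2-fold), 2 were higher in Hep3B (0 by at least 2-fold), 47 were not called, and the median difference was 0.01.

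Of 48 other imprinted genes, 12 were higher in Huh7 (4 by at least 2-fold), 9 were higher in Hep3B (5 by at least 2-fold), 27 were not called, and the median difference was 0.02. MEST, a paternally expressed hydrolase, read 7.77, 7.77 and 7.60 in the Hep3B arrays and 6.08, 5.95 and 6.18 in the Huh7 arrays and was 3.12-fold higher in Hep3B (-1.64 ± 0.09, adjusted p = 1.23e-07). ADAM23, a membrane protein of the disintegrin family, was at least 4.54-fold higher in Huh7, ZDBF2, a zinc finger gene, 3.49-fold higher, and PLAGL1, a growth suppressor, differed by 0.44. PEG10, a retrotransposon-derived gene of placenta, differed by 0.33 and was not called. RB1, LIN28B and IGF2R, described above, also belong to this list.

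Line differences were not spread evenly over the chromosomes. Over the 7839 named genes whose mean over all 12 arrays exceeded background, the median difference was 0.05, with 35.9% called higher in Huh7 and 28.9% called higher in Hep3B. Chromosome 12 had a median of 0.58, and 288 of its 455 genes (63.3%) were called higher in Huh7. Chromosome X had a median of 0.51 (120 of 219 genes called higher in Huh7) and chromosome 18 of 0.40 (66 of 130). At the other end chromosome 4 had a median of -0.29 (158 of 327 called higher in Hep3B), chromosome 21 of -0.27 (34 of 66) and chromosome 17 of -0.26 (196 of 421). The siRNA arrays gave medians of 0.56 for chromosome 12, 0.46 for X, 0.33 for 18, -0.35 for 4, -0.43 for 21 and -0.33 for 17. These values are descriptions without a test, since neighbouring genes are not independent.

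**Figure D5:**
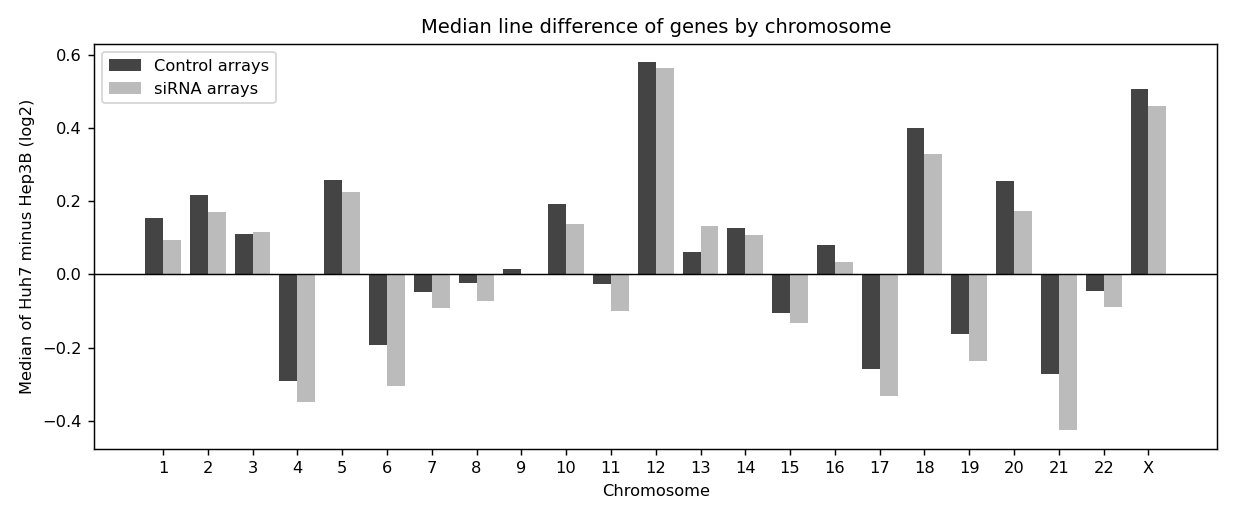
Median log2 difference, Huh7 minus Hep3B (vertical axis), of named genes above background on each chromosome (horizontal axis), dark bars for control and light bars for siRNA arrays. Chromosome 12 stands highest at 0.58 and chromosome 4 lowest at -0.29 in the control arrays.

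Several genes named above lay in runs of neighbours that differed in 1 direction. In windows of 15 neighbouring genes in RefSeq order, the median difference exceeded 1 in 236 of 7482 windows and was under -1 in 138. The windows were moved by 1 gene at a time and overlap, so these are not counts of separate regions. On chromosome X the window from SYAP1 to SMS, which holds PHKA2 and RPS6KA3, had a median of 2.12 with 15 of 15 genes higher in Huh7. The window from CPB2 to EBPL on chromosome 13, with RB1, had a median of 1.79 and 13 of 15 genes higher in Huh7. Another on chromosome 13, from CKAP2 to FABP5P1, had a median of 1.91. On chromosome 11 the window from UBE2L6 to PRPF19, with SERPING1, had a median of 1.53, and on chromosome 1 that from PARK7 to PGD, with ENO1, had a median of 1.49. Lower in Huh7 were the run from SRP72 to MOB1B on chromosome 4 with UGT2A3 and UGT2B7 (median -1.86, 14 of 15), and that from POGLUT2 to CUL4A on chromosome 13 with IRS2 and F7 (-1.66, 15 of 15). The run from AK3 to CER1 on chromosome 9 with GLDC (-1.61, 15 of 15) and the run from ATXN1 to DCDC2 on chromosome 6 with E2F3 (-1.48, 13 of 15) were lower too. The run with the lowest median, from GOLGA8IP to SNORD116-24 on chromosome 15 (-6.49, 14 of 15), was made up for the most part of SNORD116 copies. Genes of this run other than the SNORD116 copies were thus also lower in Huh7.

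Of the 227 genes selected for naming, 201 were called in the control arrays and 194 of those were called in the same direction in the siRNA arrays. The 7 called in the control arrays alone were HAL, CEBPA, CDH1, CYP4V2, GSTA1, HHEX and ARG1. Over all named genes the line difference itself changed between control and siRNA arrays for 678 of 22411 (3.03%), and 40 of the 227 were among these.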

How the data were processed

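RNA of 12 samples was measured on 1 array each, 3 per group, and 6 control arrays were compared. The authors deposited log2 values in 1 table, per the values themselves. Per the submitters' processing notes, signals came from Agilent Feature Extraction 10.7.1.1, while the labels' protocols name an Affymetrix labelling protocol and a Cy3 label. How probes were summarised and normalized is not given in the sources used here. Of 70523 rows, 67528 transcript cluster rows were kept and 2995 control and other rows left out. Platform annotation gave 23781 rows 1 symbol, 1543 several and 42204 none. Symbols were updated through RefSeq, and rows with several symbols were left unnamed. For 528 symbols with more than 1 row the brightest row was kept.

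Arrays were quantile normalized because their medians spanned 0.124. The fit used limma 3.58.1 (R 4.3.3, statmod 1.5.0) on the 4 groups of all 12 arrays, which leaves 8 residual degrees of freedom, and moderated variances with a mean-dependent trend. Two-sided p-values took a Benjamini-Hochberg adjustment across the 66158 rows, at a threshold of 0.05. The procedure was tested on simulated data. Figures used Python 3.11.15 with matplotlib 3.10.9. The named genes were the 15 largest differences each way among called genes whose arrays did not overlap and whose higher mean exceeded background, plus anchor genes of each list and its 3 largest each way, without XIST, TSIX and Y-linked genes. PTGR1 and other genes outside lists came through the first part of the rule. List members that the rule did not name (such as PGAM1, TPI1, GAPDH, PGK1, TXN, TXNRD1, ME1, PGD, AKR1B10, AKR1C4, PIR, PROS1, HABP2, HPX, UBE3A, ZDBF2, PLAGL1, CDKN1C, SOX9, MAGEL2, NR5A2, GATA4, CEBPB, HMOX1, GPX2 and APOC3) were added after their values were seen. The gene lists and members were chosen with earlier results of these data known. Replicate numbers were not treated as pairs: same-numbered control arrays of the lines had deviations that correlated at 0.02 to 0.09. The alternatives tried were median centring, cyclic loess, the values as deposited, rows above background, the mean of probes, no trend, only the 6 arrays compared, a replicate block, a 2-fold minimum, and leaving out each array in turn. The number of arrays limits the precision.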

Additional observations from a re-analysis of the deposited data

Results flagged for a closer look

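For 40 of the named genes the Huh7 minus Hep3B difference itself differed between the control arrays and the siRNA arrays, by limma's test of that change across all rows (678 of 22411 named genes, 3.03%). The values below are the change, control-array difference minus siRNA-array difference, in log2 units.

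In genes higher in Huh7, the line difference was larger in the control arrays for FGB by 2.33, FGA by 2.14, CTSE by 2.07, FGG by 1.33, CDH2 by 1.32, GCLM by 1.06, PYGL by 1.002 and GSTP1 by 0.99. It was larger for HSD17B2 by 0.84, HHEX by 0.75, KRT18 by 0.65, VIM by 0.53 and FOXA2 by 0.52 as well. For TTR (-1.03), ITGAV (-0.71), ANXA1 (-0.68) and C5 (-0.53) the excess in Huh7 was smaller in the control arrays than in the siRNA arrays.

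In genes higher in Hep3B, a negative change marks a larger excess in Hep3B in the control arrays: SNORD116-2 changed by -1.81, PROM1 by -1.61, HAL by -1.52, RELN by -1.39, SLC6A14 by -1.17 and CP by -1.06. Smaller changes of this kind were those of ASS1 (-0.96), C3 (-0.93), FGFR2 (-0.74), SSTR2 (-0.69), CDH1 (-0.64), AKR1D1 (-0.62) and SDC2 (-0.59). A positive change marks a smaller excess in Hep3B in the control arrays: CDH6 changed by 2.10, CPS1 by 1.89, UGT2B7 by 0.99, ONECUT1 by 0.91, ACSL4 by 0.74, SERPINI1 by 0.71 and ALB by 0.67.

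ALDH1A1 (1.28), EGFR (-1.02) and CPT1A (0.96) were not called in the control arrays and differed between the lines in the siRNA arrays by -1.13, 1.096 and -1.07. The Hep3B control arrays lay within background for CTSE and ANXA1 and the Huh7 control arrays for RELN, SNORD116-2, FGFR2, UGT2B7 and AKR1D1, so background limits the size of these changes.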

How the results depend on the processing

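Of 201 called named genes, 197 kept direction and call under each of the 14 alternatives that gave them a value (5 had none among rows above background), none reversed, and 4 (IGF1R, TTR, SDC4 and ADH1A) lost the call when single arrays were left out. IGF1R also lost it on deposited values, with median centring, with cyclic loess and with the replicate block (adjusted p = 0.0512). In the other direction 4 genes that were not called gained a call. HK2 did with the replicate block (0.048), among rows above background and without Huh7 control array 3, PPARA did on deposited values, B2M without Huh7 control array 3, and PECAM1 without that array (0.0438) or Hep3B control array 3 (0.0369). The 13846 called rows became 13427 with the replicate number as a block (a replicate block, although the numbers were not shown to pair arrays), 13046 with median centring and 4272 with a 2-fold minimum. Leaving out 1 array gave 11934 to 12590. The 15402 rows of the siRNA arrays became 15053 with the block and 4647 with the 2-fold minimum, and 13384 to 14302 without 1 array. The share of called rows higher in Huh7 was 52.7%, and 47.6% on the deposited values. Genes that were not called changed sign as follows, the cause not being tested. On deposited values SERPINA1 differed by -0.00101, COL1A1 by -0.015 and ALDH1A1 by -0.14. ALDH1A1 differed by -0.0887 with median centring and by -0.18 with cyclic loess, and FASN by 0.0321 with median centring. Without 1 array, PCK1 ran from -0.0676 to 0.0317, SERPINA1 from -0.0103 to 0.0237, FASN from -0.134 to 0.0468 and CDH5 from -0.0909 to 0.00627. Of 80 list counts 63 moved by more than 1.5 times under at least 1 alternative, the 2-fold minimum included. Signals near background and near the top of the scale limit the folds.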

Other observations

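Genes of antigen presentation, not described above, differed in both directions. Of 27 measured members, 7 were higher in Huh7 (2 by at least 2-fold), 7 were higher in Hep3B (1 by at least 2-fold), 13 were not called, and the median difference was 0.03. The called share was 51.9%, against 33.3% of all named genes. Above background in at least 1 line were 8 of the 27, so some calls were of genes within background in both lines. The median near 0 therefore says little about the expressed members. MICB, a stress ligand of the NKG2D receptor, read 6.85, 6.87 and 6.86 in the Hep3B arrays and 8.44, 8.92 and 8.83 in the Huh7 arrays and was 3.67-fold higher in Huh7 (1.87 ± 0.13, adjusted p = 1.08e-06), while its neighbour MICA had a log2 difference of -0.50 with all Huh7 arrays within background. ERAP1, which trims peptides in the endoplasmic reticulum, was 4.25-fold higher in Huh7. HLA-B and HLA-E differed by -0.65 and -0.57, and B2M, the light chain of class I molecules, by -0.22 (not called, but called without Huh7 control array 3, at -0.40 with an adjusted p of 0.0421).

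Of 9 blood and macrophage markers, 2 exceeded background in each line. LYZ, the lysozyme of myeloid cells, read 10.71, 10.72 and 10.86 in the Hep3B arrays and 14.49, 14.41 and 14.32 in the Huh7 arrays, 12.4-fold higher in Huh7 (3.64 ± 0.17, adjusted p = 3.59e-08). CD68, a lysosomal protein of macrophages, read 9.05, 8.90 and 8.997 in the Hep3B arrays and 7.44, 7.60 and 7.73 in the Huh7 arrays and was 2.62-fold higher in Hep3B (-1.39 ± 0.13, adjusted p = 8.15e-06), with PTPRC within background in both lines. LUM, a proteoglycan of fibroblasts, was at least 1.57-fold higher in Huh7, with COL1A1 and PDGFRB not called and within background in both lines.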
